A study of Homo sapiens with 4 samples.

Results

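The genes described are CDH1, CDH2, CDH3, CDH6 and CDH11, which encode classical cadherins, and EPCAM, which encodes an epithelial adhesion protein. These 6 genes, of 23364 listed in at least 1 table, were chosen by name, and their rows were read in all 4 tables over cells with at least 500 genes. KhES1, an established human embryonic stem cell (hESC) line that was the only line used, was profiled by droplet 3′ single-cell RNA sequencing as 2 samples of stem cells (hESC 1 and 2) and 2 samples of blastoids (blastoid 3 and 4). No genetic change is named for either group. The stem cells grew on Matrigel in mTeSR-1 medium, with 10 µM of the ROCK inhibitor Y27632 on the first day after passage. For blastoids, which are aggregates made to resemble a blastocyst, the same cells were aggregated for 24 h in Aggrewell plates with 10 µM Y27632. The aggregates were then set in a PNIPAAm-PEG hydrogel with serum-containing DMEM for 3 days and moved to iBlastoid medium. The titles of all 4 samples carry day 0, whereas the names of the blastoid tables carry day 9, so each sample's description was used to place it. How many aggregates were pooled, and whether the samples of a group were separate cultures, is not given in the sources used here, so p-values measure only the spread between these samples.

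Classical cadherins are calcium-dependent transmembrane proteins that bind the same cadherin on the next cell and are tied to actin through catenins. E-cadherin (CDH1) holds epithelia and primed pluripotent cells together. Cells that leave the epiblast as mesoderm classically lose it and gain N-cadherin (CDH2), while amnion and trophectoderm remain epithelial. P-cadherin (CDH3) is found in placental and other epithelia, K-cadherin (CDH6) in kidney and neural crest, and cadherin-11 (CDH11) in mesenchyme. EPCAM is a surface protein of simple epithelia and pluripotent cells that is not a cadherin.

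The 5 cadherins fall into type I (CDH1, CDH2, CDH3) and type II (CDH6, CDH11), which differ at the tip that inserts into the partner molecule. The stretches below are shown because they carry that difference. They are the first 12 codons of each mature protein in GENCODE release 29 on GRCh38, written 5′ to 3′ on the coding strand, with tryptophan codons (TGG) in capitals. CDH1 (chr16:68808499-68808534, plus strand), CDH2 (chr18:28011879-28011914, minus strand) and CDH3 (chr16:68678209-68678244, plus strand) have them in exon 4. CDH6 (chr5:31267633-31267668, plus strand) has them in exon 2 and CDH11 (chr16:65004675-65004710, minus strand) in exon 3.
CDH1: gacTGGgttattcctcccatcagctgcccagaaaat
CDH2: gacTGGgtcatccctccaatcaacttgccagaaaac
CDH3: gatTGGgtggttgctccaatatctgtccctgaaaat
CDH6: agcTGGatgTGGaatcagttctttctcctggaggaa
CDH11: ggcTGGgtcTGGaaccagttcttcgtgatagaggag
Each type I stretch held 1 tryptophan codon and each type II stretch held 2. Over the aligned mature proteins, CDH6 and CDH11 shared 60.4% of residues and CDH1 and CDH3 61.1%. CDH1 and CDH2 shared 52.7%, and a type I with a type II protein between 34.1% and 39.9%. The CDH3 gene (chr16:68636189-68722616) lies just before CDH1 (chr16:68737225-68835548) on the same strand. CDH11 (chr16:64943753-65126112) is also on chromosome 16, CDH2 (chr18:27950966-28177446) is on 18, CDH6 (chr5:31193750-31329146) on 5 and EPCAM (chr2:47345158-47387601) on 2. All 6 genes overlap another annotated gene, so counting could have left out some reads. Whether it used strand is not given in the sources used here.

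After filtering, 2238, 3175, 2278 and 1916 cells were kept for hESC 1, hESC 2, blastoid 3 and blastoid 4, with medians of 5769, 4996, 6207 and 8798 UMIs per cell and 13255214 to 17679448 UMIs per sample. A UMI is a tag that marks 1 captured RNA molecule. The tables of hESC 1 and 2 shared 1317 cell barcodes and those of blastoid 3 and 4 shared 1035, against 6 to 14 between groups. Only 23 of the first pair and 0 of the second were kept as cells in both samples. Still, 1311 of the 3175 kept cells of hESC 2 and 1015 of the 1916 of blastoid 4 carried a barcode listed in another table, against 26 cells of hESC 1 and 6 of blastoid 3. Results are therefore also given without all cells that carry such a barcode. The hESC label held in the marker genes: the 12 pluripotency markers summed to 5958 and 6173 UMIs per 1e+06 UMIs of the sum (CPM) in hESC 1 and 2 and to 1032 and 971 CPM in blastoid 3 and 4. GATA3, CDX2, HAND2 and 16 others of the 28 amnion/trophectoderm and mesoderm/mesenchyme markers were at 0 in both hESC samples. In the blastoids no hypoblast/endoderm marker of the 9 with counts reached 10% of cells.

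Summed over all cells of a sample, the mesenchymal cadherin CDH11 rose in the blastoids, CDH6 rose from near 0, and EPCAM fell. CDH1, CDH2 and CDH3 did not pass the test. The genes were compared in 1 edgeR quasi-likelihood test over 16332 genes, in which 49.9% of genes were called at an adjusted p under 0.05, 27.1% higher and 22.8% lower in blastoids. Of the 6 genes 3 were called, 2 higher and 1 lower, a share near that of all genes. Of the 2 called higher, CDH6 could pass the filter on low counts only through its blastoid counts. In such sums, more cells of a type and more RNA per cell cannot be told apart.

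CDH11 stood at 3.24 and 2.70 CPM in hESC 1 and 2 and at 212 and 126 CPM in blastoid 3 and 4. The lowest blastoid sample lay far above both hESC samples. The mean was 169 ± 61.1 CPM in blastoids against 2.97 ± 0.38 CPM in hESC (SD, n = 2 each). In the edgeR fit, which scales libraries by TMM while the printed CPM are unscaled, the difference was 51.7-fold (log2 fold change 5.69 ± 0.28 SE, edgeR adjusted p = 1.43e-05). The other type II cadherin, CDH6, had 3 UMIs in hESC 1 and was not listed in hESC 2, where it was taken as 0. In blastoid 3 and 4 it had 27 and 43 UMIs, or 1.79 and 2.43 CPM. The ratio of blastoid to hESC CPM was 20.8, with an exact 95% counting interval from 6.82 to 103 (edgeR adjusted p = 0.00386). Being near 0 in hESC, CDH6 could enter this test only as a gene higher in blastoids. CDH6 thus remained rare, in 0.92% and 1.51% of blastoid cells before any thinning for depth.

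EPCAM was at 227 and 222 CPM in hESC 1 and 2 and at 116 and 179 CPM in blastoid 3 and 4. Both blastoid samples were below both hESC samples, but they differed from each other by more than the hESC samples did. EPCAM fell 1.65-fold in the edgeR fit (log2 fold change -0.72 ± 0.23 SE, edgeR adjusted p = 0.0320). The call was lost without hESC 1 (log2 fold change -0.69, edgeR adjusted p = 0.124) and without hESC 2 (-0.76, edgeR adjusted p = 0.0873), where the fold changes stayed near that of all samples, within a range of 6.40e-09 to 0.124 over all edgeR and DESeq2 alternatives. The log2 fold change was -1.16 without blastoid 4 and -0.39 without blastoid 3.

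CDH1 was at 143 and 136 CPM in hESC 1 and 2 and at 114 and 132 CPM in blastoid 3 and 4. The groups did not overlap, yet blastoid 4 lay close to hESC 2, and the test was not passed (log2 fold change -0.31 ± 0.15 SE, edgeR adjusted p = 0.119). Without the barcodes that samples shared the value was -0.41 (edgeR adjusted p = 0.0420), and without blastoid 4 it was -0.50 (edgeR adjusted p = 0.00102). Over all alternatives the adjusted p ran from 0.00102 to 0.488. Leaving out the shared barcodes changed no other call among the 6 genes, with log2 fold changes of 5.76 for CDH11, 0.68 for CDH2, -0.48 for CDH3 and -0.85 for EPCAM and an edgeR adjusted p of 0.00675 for CDH6.

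The 2 blastoid samples went apart in CDH2 and CDH3. CDH2 was at 32.7 and 37.7 CPM in hESC 1 and 2, at 87.5 CPM in blastoid 3 and at 35.2 CPM in blastoid 4. Blastoid 4 lay between the hESC samples (log2 fold change 0.65 ± 0.34 SE, edgeR adjusted p = 0.152). CDH3 was at 41.3 and 43.6 CPM in hESC 1 and 2, at 23.8 CPM in blastoid 3 and at 45.3 CPM in blastoid 4. Here blastoid 3 was the low sample and blastoid 4 the highest of all 4 (log2 fold change -0.41 ± 0.30 SE, edgeR adjusted p = 0.286). The directions rested on 1 library: without blastoid 3 the log2 fold changes were -0.06 for CDH2 and 0.03 for CDH3, and without blastoid 4 they were 1.10 (edgeR adjusted p = 8.42e-09) and -1.04 (edgeR adjusted p = 1.90e-07). The adjusted p over all alternatives ran from 8.42e-09 to 0.687 for CDH2 and from 1.90e-07 to 0.845 for CDH3.

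**Figure D1:**
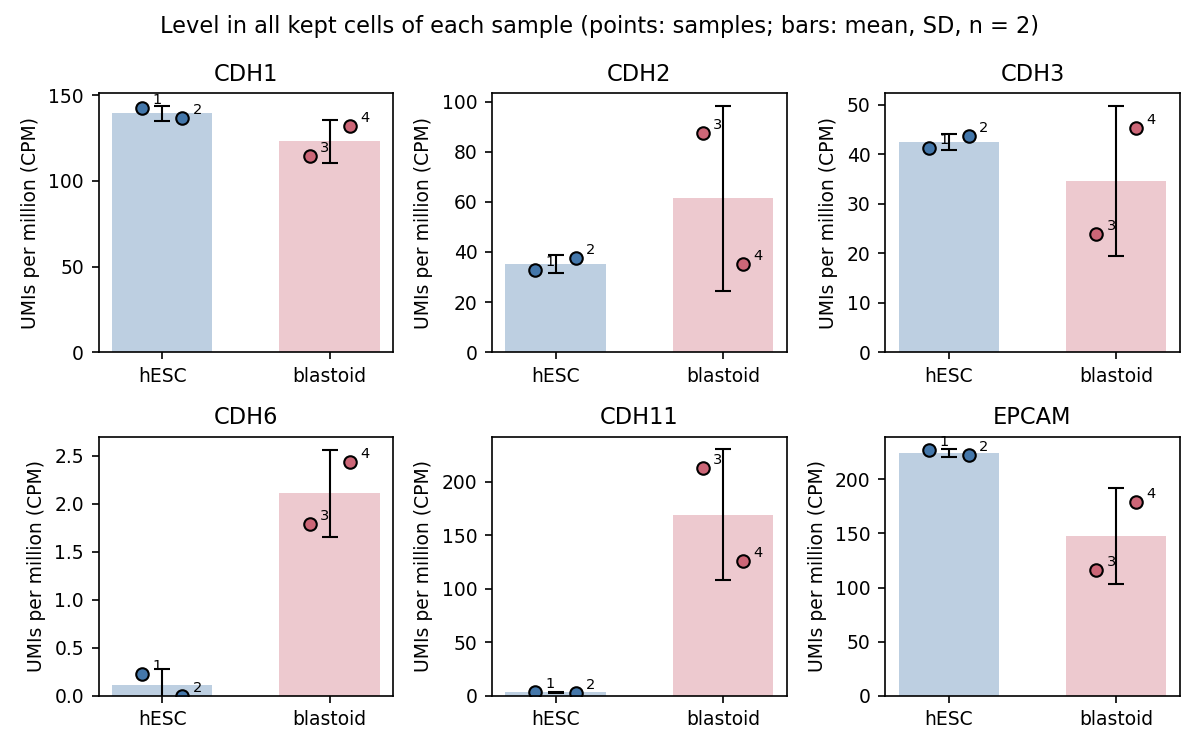
Level of each gene in UMIs per 1e+06 UMIs (vertical axis) in all kept cells of hESC 1 and 2 and blastoid 3 and 4 (points, numbered by sample), with bars for the mean and error bars for the SD of the 2 samples. CDH11 and CDH6 are near 0 in the stem cells, and in CDH2 and CDH3 blastoid 3 and 4 lie far apart.

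Blastoid 3 and 4 also differed in the kinds of cell they held. Cells were clustered without the 6 genes and without the adhesion genes listed further on, and clusters were named from marker genes. Mesoderm/mesenchyme-like cells (PDGFRA, COL1A1, PITX1) made up 77.17% of blastoid 3 and 60.59% of blastoid 4. Amnion/trophectoderm-like cells (GABRP, VTCN1, TFAP2A) made up 18.79% and 33.25%, and pluripotent-like cells 3.78% and 5.48% (86 and 105 cells). Endothelial-like cells numbered 5 and 12. In the hESC samples 92.9% and 91.87% of cells were pluripotent-like, and nearly all others sat in an unnamed cluster of low depth. Classes come from the same cells, so levels by class are a description with no test. Some clusters, among them most pluripotent-like blastoid cells, lost their class name at other settings, as given in the closing section.

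The epithelial genes were highest in the amnion/trophectoderm-like cells and low in the mesoderm/mesenchyme-like cells of the same blastoids. CDH1 was at 375 and 289 CPM in the former (blastoid 3 and 4) and at 42.7 and 29.5 CPM in the latter. For comparison, pluripotent-like hESC had 144 and 139 CPM. The log2 ratio of the 2 blastoid classes was 3.18 ± 0.10 for CDH1 (SD, n = 2 samples). EPCAM was at 474 and 437 CPM in amnion/trophectoderm-like and at 17.2 and 12.7 CPM in mesoderm/mesenchyme-like cells, a log2 ratio of 4.85 ± 0.21. The amnion/trophectoderm-like class thus held 79.1% of the EPCAM UMIs of blastoid 3 and 84.7% of those of blastoid 4, while it held 19.4% and 34.7% of all UMIs. CDH3 followed the same order with smaller steps, at 62.6 and 84.6 CPM against 13.8 and 21.6 CPM, a log2 ratio of 2.01 ± 0.13.

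The other cadherins were arranged the opposite way. CDH2 was at 111 and 56.1 CPM in mesoderm/mesenchyme-like cells and at 5.47 and 3.75 CPM in amnion/trophectoderm-like cells, a log2 ratio of -3.85 ± 0.37. The amnion/trophectoderm-like level was also under the 33.1 and 38.4 CPM of pluripotent-like hESC, so both blastoid samples had CDH2 above the stem cell level in one class and below it in the other. CDH11 was at 273 and 204 CPM in mesoderm/mesenchyme-like cells, which held 97.8% and 93.0% of its UMIs, and at 17.1 and 20.1 CPM in amnion/trophectoderm-like cells (log2 ratio -3.60 ± 0.45). Pluripotent-like hESC had 3.29 and 2.70 CPM. The part of free RNA from the abundant mesoderm/mesenchyme-like cells in the low CDH2 and CDH11 counts of the other classes was not tested. Without the shared barcodes, which left 290 amnion/trophectoderm-like and 591 mesoderm/mesenchyme-like cells in blastoid 4, the log2 ratios were 3.41 for CDH1, 5.07 for EPCAM, 1.95 for CDH3, -4.29 for CDH2 and -3.43 for CDH11. CDH6 was rare in both classes, with 1 UMI in each amnion/trophectoderm-like sum and 6 and 13 UMIs in the mesoderm/mesenchyme-like sums.

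**Figure D2:**
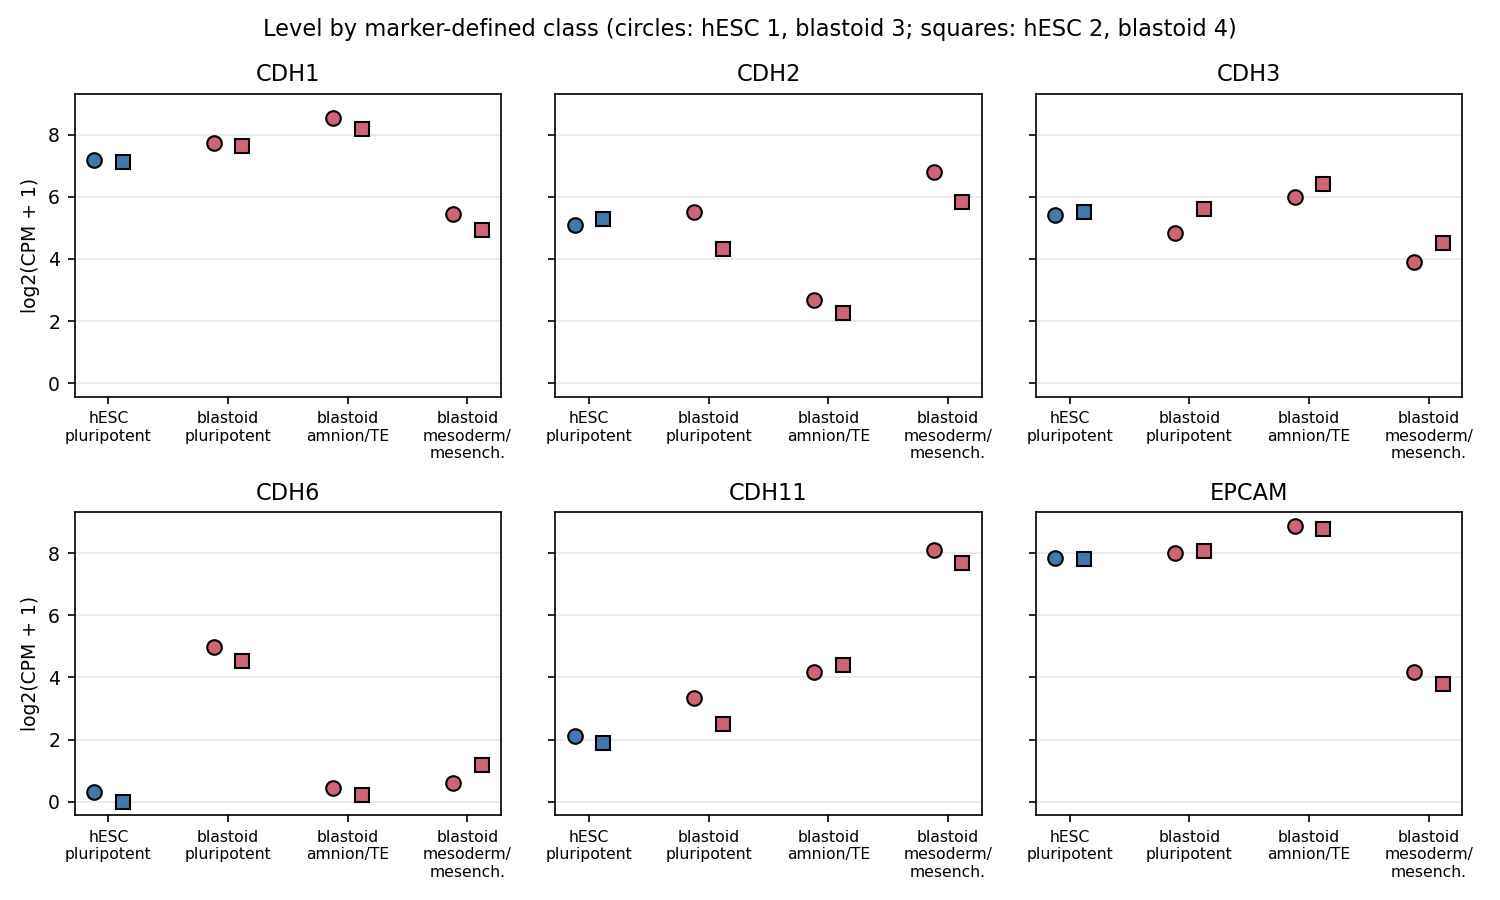
Level as log2(CPM + 1) (vertical axis) of each gene by marker-defined class of cells, with 1 point per sample (circles for hESC 1 and blastoid 3, squares for hESC 2 and blastoid 4). CDH1, CDH3 and EPCAM are lowest in the mesoderm/mesenchyme-like cells, CDH2 is lowest in the amnion/trophectoderm-like cells, and CDH6 stands out only in the pluripotent-like cells of the blastoids.

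CDH6 stood highest in the few pluripotent-like cells of the blastoids. These cells had 20 and 29 CDH6 UMIs, or 30.5 and 22.3 CPM, against 0.23 and 0 CPM in pluripotent-like hESC (3 and 0 UMIs). They held 74.1% and 67.4% of all CDH6 UMIs of blastoid 3 and 4 with 4.33% and 7.37% of all UMIs. The ratio to hESC was 239, with an exact 95% counting interval from 77.1 to 1198. In a second edgeR fit restricted to pluripotent-like cells, CDH6 was called higher (adjusted p = 6.06e-08). Of the 14132 genes tested there 21.9% were called, 11.7% higher and 10.2% lower. CDH6 could again pass the filter on low counts only through the blastoid cells, so it could be tested only as a gene higher in them. Most of these blastoid cells were 1 cluster of 64 and 99 cells, led by TMPRSS11E and NODAL, in which 26.6% (exact 95% interval 16.3 to 39.1) and 20.2% (12.8 to 29.5) of cells had a CDH6 UMI. The hESC cells of the class sat in other clusters. Other marker lists differed as well. The 14 amnion/trophectoderm markers summed to 173 and 160 CPM in the pluripotent-like cells of blastoid 3 and 4 against 21.5 and 19.3 CPM in those of hESC, where 12 of them were at 0 in both samples. The 14 mesoderm/mesenchyme markers summed to 312 and 191 CPM against 74.1 and 78.6 CPM, and the 12 pluripotency markers to 4390 and 3939 CPM against 5977 and 6192 CPM. Their part in the differences within this class was not tested. In amnion/trophectoderm-like and mesoderm/mesenchyme-like cells of the same samples the share was between 0.16% and 0.60%. The median depth was 7974 and 12524 UMIs in the pluripotent-like cells of blastoid 3 and 4 and 6179 to 9064 UMIs in the other 2 classes. After thinning each cell to 2000 UMIs, 3 of 64 and 6 of 101 pluripotent-like blastoid cells had a CDH6 UMI. Of 1794 and 2182 pluripotent-like hESC thinned likewise 0 had one, which allows shares of cells with a UMI at this depth of up to 0.17% and 0.14% (3 counts of the total) and sets no limit on cells that express the gene. Unthinned, hESC 1 had the 3 UMIs given above. Without the shared barcodes only 16 of the 105 pluripotent-like cells of blastoid 4 were left, with 5 CDH6 UMIs, while blastoid 3 kept all 86, and CDH6 stayed called (edgeR adjusted p = 7.12e-24). The pluripotent-like values of blastoid 4 thus rest mostly on cells whose barcode another table also lists.

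In the same fit CDH1 was called higher, from 144 and 139 CPM in pluripotent-like hESC to 211 and 198 CPM in pluripotent-like blastoid cells. The groups did not overlap, and the fitted difference was 1.37-fold (log2 fold change 0.45 ± 0.14 SE, edgeR adjusted p = 0.0314). This call changed with the settings. It was lost with DESeq2 (adjusted p = 0.100), without the filter on low counts (edgeR, 0.0829), without the shared barcodes (edgeR, 0.0851), and without hESC 1, hESC 2 or blastoid 4 (edgeR, 0.235, 0.354 and 0.113), within a range of 0.0141 to 0.354. The log2 fold changes behind these lost calls were 0.43, 0.39, 0.40, 0.50, 0.40 and 0.39, in the same order, and thus near that of the full fit. The other 4 genes were not called. CDH2 was at 44.3 and 19.2 CPM in pluripotent-like cells of blastoid 3 and 4, CDH3 at 27.5 and 48.4 CPM, CDH11 at 9.16 and 4.61 CPM (6 UMIs in each) and EPCAM at 258 and 271 CPM. Their edgeR adjusted p ranged from 0.180 for CDH11 to 0.688 for CDH3. Without blastoid 3, CDH2 was called lower (log2 fold change -0.92, edgeR adjusted p = 0.00621, in a range of 0.00621 to 0.983). When a cell's class was instead the marker set with most UMIs, 356 and 231 blastoid cells were called pluripotent-like. CDH11 then had a log2 fold change of 5.34 (edgeR adjusted p = 1.57e-05), CDH1 was no longer called (edgeR adjusted p = 0.109), and CDH6 remained called.

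Within the mesoderm/mesenchyme-like class the levels differed widely between 5 clusters. The cluster led by MESP1, MSGN1 and MIXL1, transcription factors of nascent mesoderm, had 235 and 41 cells in blastoid 3 and 4. Its class name was close: 11 of 14 mesoderm/mesenchyme markers and 9 of 12 pluripotency markers were found in at least 10% of its cells. Among the 5 clusters it held the highest CDH1, at 109 and 114 CPM, and the highest EPCAM, at 54.9 and 53.8 CPM. It also had the highest CDH2, at 208 and 123 CPM, and its CDH11 was at 351 and 421 CPM. At the other end, the cluster led by CXCL14, POSTN and DCN, genes of stromal cells, had 332 and 127 cells. Its CDH1 was at 5.01 and 6.43 CPM and its EPCAM at 6.84 and 4.59 CPM. Its CDH2 was at 31.4 and 22.0 CPM and its CDH11 at 137 CPM in both samples, so all 4 genes were lower there than in the MESP1 cluster in both samples. CDH11 in the CXCL14 cluster nonetheless made up 74.8% and 73.8% of the UMIs of the 5 cadherins, against 51.4% and 61.0% in the MESP1 cluster.

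In CDH1 and CDH2 the remaining 3 mesoderm/mesenchyme-like clusters lay between these. In the cluster led by KYNU and PRRX1 (562 and 471 cells) CDH1 was at 41.3 and 22.0 CPM and CDH2 at 117 and 64.6 CPM. In the cluster led by PITX1 and the mitotic kinase PBK (492 and 412 cells) they were at 38.1 and 30.9 CPM and at 108 and 54.2 CPM. In the cluster led by TECRL and NPNT (137 and 110 cells) they were at 26.5 and 37.9 CPM and at 104 and 39.2 CPM. This cluster had the highest CDH3 of the class, at 44.6 and 57.5 CPM, a little above pluripotent-like hESC (41.7 and 44.2 CPM). CDH2 was higher in blastoid 3 than in blastoid 4 in all 5 clusters.

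**Figure D3:**
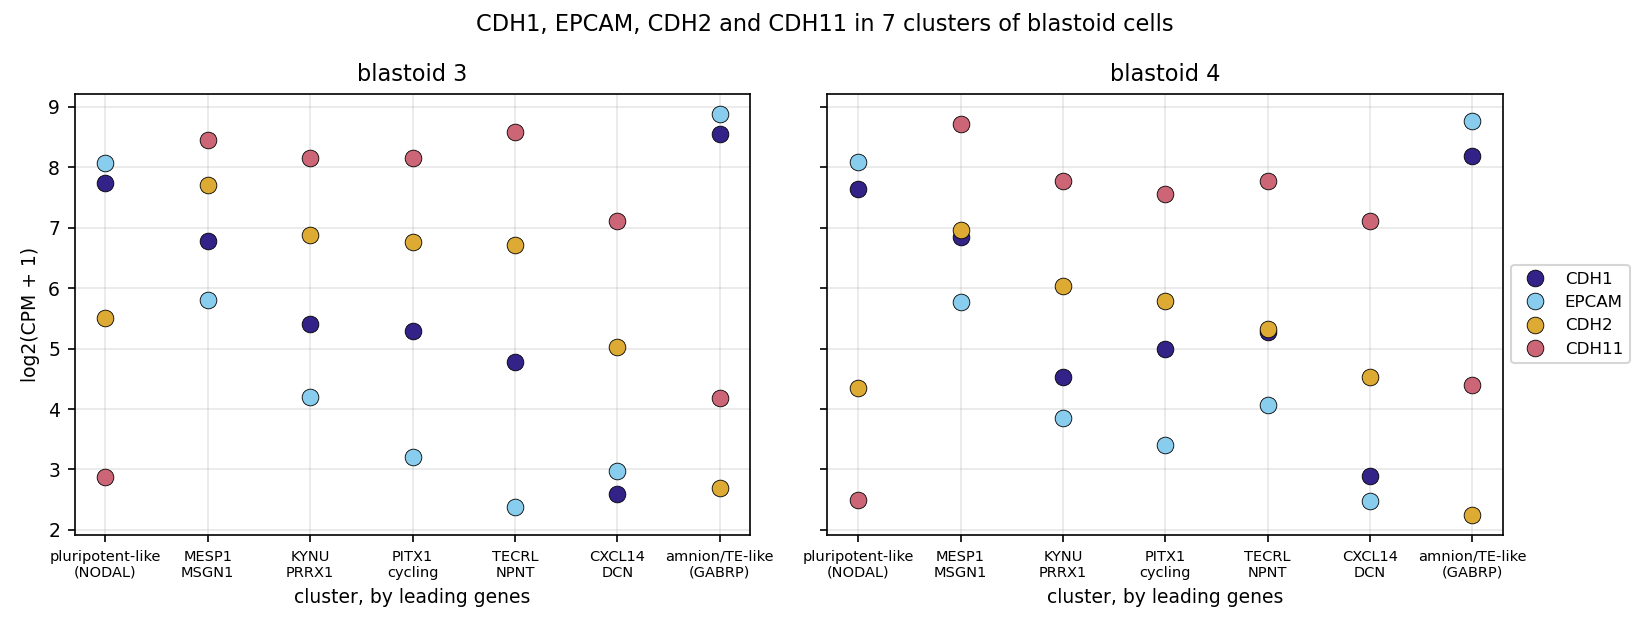
Level as log2(CPM + 1) (vertical axis) of CDH1, EPCAM, CDH2 and CDH11 in 7 clusters of blastoid cells (horizontal axis, by leading genes), for blastoid 3 (left) and blastoid 4 (right). From the MESP1 to the CXCL14 cluster all 4 genes are lower, and CDH1 and EPCAM are highest in the amnion/trophectoderm-like cluster.

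EPCAM and CDH1 did not keep a fixed ratio. In 3′ UMI data a level does not grow with gene length, but capture differs between genes, so the ratio is compared only between groups of cells. There were 1.58 and 1.61 EPCAM UMIs per CDH1 UMI in pluripotent-like hESC, 1.22 and 1.37 in pluripotent-like blastoid cells, and 1.26 and 1.51 in amnion/trophectoderm-like cells. In mesoderm/mesenchyme-like cells there were 0.40 and 0.43, and in the MESP1 cluster 0.51 and 0.47. The CDH1 counts of the mesoderm/mesenchyme-like cells thus came with fewer EPCAM counts than in the amnion/trophectoderm-like or pluripotent-like cells of the same sample. The CXCL14 cluster, with 11 and 7 CDH1 UMIs, is too sparse for a ratio. Among the UMIs of the 5 cadherins, CDH1 took 64.8% and 62.0% in pluripotent-like hESC, 81.4% and 72.7% in amnion/trophectoderm-like cells and 9.69% and 9.44% in mesoderm/mesenchyme-like cells. In the last, CDH11 took 61.9% and 65.3% and CDH2 25.2% and 17.9%.

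The shares of cells with a UMI were compared after thinning each cell to 2000 UMIs. Thinning left out 435 and 973 shallow cells of hESC 1 and 2 and 107 and 42 of blastoid 3 and 4. EPCAM was detected in 34.7% and 36.9% of hESC and in 13.4% and 23.3% of blastoid cells. CDH1 was detected in 23.7% and 24.9% against 15.7% and 19.7%, and CDH11 in 0.67% and 0.41% against 32.7% and 19.96%. At this depth the groups did not overlap for these 3 genes, nor for CDH6 and CDH3. How many of all genes separated in this way was not counted, so nothing is read from it. CDH2 was detected in 6.10% and 6.95% of hESC and in 13.9% and 6.94% of blastoid cells, and CDH3 in 7.43% and 8.27% against 4.74% and 7.15%, which overlapped at 1000 and at 4000 UMIs. The exact two-sided permutation test gave p = 0.33 for 5 genes and 0.67 for CDH2, and with 2 samples against 2 it cannot go below 0.33, also before adjustment over the 6 genes. Without the shared barcodes the shares kept these directions, with EPCAM in 34.7% and 37.8% of hESC and in 13.4% and 21.2% of blastoid cells. Before thinning, EPCAM was found in 62.2%, 56.1%, 24.6% and 40.9% of cells of the 4 samples, and CDH11 in 1.92%, 1.35%, 57.5% and 48.4%.

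CDH1 and CDH2 were rarely seen in the same cell. At 2000 UMIs both were detected in 1.77% and 1.36% of hESC and in 1.34% and 0.53% of blastoid cells. In pluripotent-like hESC, CDH2 was found in 7.49% and 5.47% of cells with a CDH1 UMI and in 5.71% and 7.53% of those without, so the direction differed between the 2 samples. The cells of the amnion/trophectoderm-like class had CDH1 alone in 52.0% and 44.4% and CDH2 alone in 0.52% and 0.48%. The mesoderm/mesenchyme-like cells had CDH1 alone in 5.46% and 4.91% and CDH2 alone in 15.5% and 9.74%. In the MESP1 cluster of blastoid 3, 12 of 234 cells had both (5.13%, exact 95% interval 2.68 to 8.79), and CDH2 was found in 26.1% of its CDH1-positive and 25.5% of its other cells. In blastoid 4, 0 of 41 cells of that cluster had both, with an exact 95% interval up to 8.60%. At 2000 UMIs most cells of each sample had a UMI of neither gene, and at 4000 UMIs the mean share of cells with both was 5.67% in hESC and 2.87% in blastoids. Doublets that were not called can add to these cells, and their part was not tested.

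**Figure D4:**
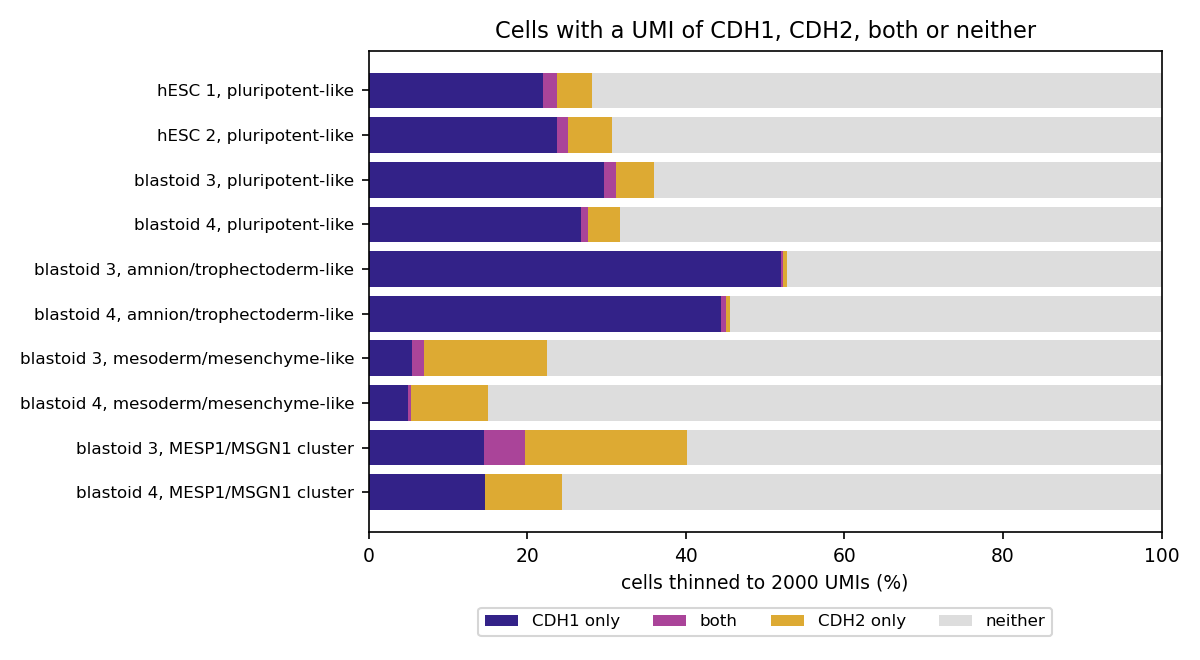
Share of cells, thinned to 2000 UMIs, with a UMI of CDH1 only, of both genes, of CDH2 only or of neither (horizontal axis, percent), by sample and class. CDH1 alone reaches 52.0% and 44.4% in the amnion/trophectoderm-like cells, and the MESP1/MSGN1 cluster of blastoid 3 has 5.13% of cells with both.

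Stem cells also varied among themselves. The hESC cluster led by GDF15, CDKN1A and MDM2, targets of p53, had 168 and 227 cells, with CDH1 at 159 and 167 CPM and CDH2 at 24.7 and 23.9 CPM. The largest hESC cluster (1154 and 1360 cells) had CDH1 at 143 and 134 CPM and CDH2 at 35.4 and 40.2 CPM. CDH1 was higher and CDH2 lower in the GDF15 cluster than in the largest one in both samples. The GDF15 cluster had only 30 and 36 CDH2 UMIs. In hESC 1 a shallow pluripotent-like cluster had still lower CDH2, at 17.0 CPM on 6 UMIs. EPCAM was nearly level, at 219 and 222 CPM against 222 and 220 CPM. In the low-depth unnamed cluster (medians of 1134 and 1135.5 UMIs) CDH1 was at 20.3 and 18.0 CPM on 4 and 6 UMIs, whereas EPCAM was at 132 and 141 CPM.

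Over the 8 sums of a sample and class with at least 50 cells, 6506 genes were ranked by Pearson correlation of log2(CPM + 1) with each of the 6 genes. The sums share libraries and classes, so these values only describe likeness. The profile of CDH1 was most like those of DIAPH2 (r = 0.993), CLDN6 (r = 0.991) and FNBP1L (r = 0.990). That of EPCAM was most like RBM47 (r = 0.995), TRIML2 (r = 0.994) and CLDN7 (r = 0.994). CLDN6 and CLDN7 encode claudins of tight junctions. CLDN6 ran from 327 and 281 CPM in amnion/trophectoderm-like cells through 134 and 158 CPM in hESC to 26.7 and 20.1 CPM in mesoderm/mesenchyme-like cells. CDH11 was most like FRMD4B, COL6A2 and PKN2. COL6A2, a chain of collagen VI, was at 353 and 358 CPM in mesoderm/mesenchyme-like cells and at 25.7 and 24.0 CPM in hESC. CDH2 was most like NCAPH, CENPE and SGO2, genes of chromosome condensation and segregation, and CDH3 was most like NPDC1, ZDHHC12 and LLGL2. CDH6 was most like TOMM7, KBTBD7 and NES. NES, the intermediate filament nestin, was at 179 and 203 CPM in pluripotent-like blastoid cells and at 61.2 to 95.4 CPM in the other 6 sums. Between the genes themselves, r was 0.98 for CDH1 and EPCAM, -0.80 for CDH1 and CDH2, -0.93 for CDH2 and CDH3 and 0.36 for CDH2 and CDH11.

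The partners and regulators of the 6 genes were read from 9 lists of 145 genes. Their counts are set beside those over all genes tested, of which 27.1% were called higher and 22.8% lower. The log2 fold change of the median gene was 0.05. Of the 20 catenins and cadherin partners 7 were called higher and 5 lower (median 0.25), not far from the 49.9% called among all genes. CTNNB1, the catenin that binds cadherin tails and also carries Wnt signals, rose from 105 and 135 CPM in hESC to 240 and 217 CPM in blastoids (log2 fold change 0.80 ± 0.14 SE, edgeR adjusted p = 0.00343). VCL, the actin linker vinculin, fell from 271 and 286 CPM to 152 and 129 CPM (log2 fold change -1.12, edgeR adjusted p = 0.000436). PTPN1, a phosphatase that acts on catenin, and NECTIN2, an adhesion molecule of the same junctions, rose by 0.88 and 0.79 on the log2 scale. CTNNB1 was about equal in the 2 large blastoid classes (243 to 254 CPM in blastoid 3 and 213 to 246 CPM in blastoid 4).

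Of 9 other classical and desmosomal cadherins tested, 7 were called higher and 1 lower (median 1.84), against 27.1% and 22.8% of all genes. The list had 20 genes, 16 of them with counts, and the 9 are those that passed the filter on low counts. A gene near 0 in hESC, such as CDH10 (0.23 and 0 CPM in pluripotent-like hESC), could pass only through its blastoid counts. The number called higher and the median are therefore in part set by the filter. The desmosomal DSC2 rose from 49.0 and 45.4 CPM to 185 CPM in both blastoid samples (edgeR adjusted p = 5.63e-05), and DSG2 from 113 and 116 CPM to 224 and 192 CPM (edgeR adjusted p = 0.00249). By class, DSC2 was at 216 and 200.3 CPM in amnion/trophectoderm-like and at 184 and 186 CPM in mesoderm/mesenchyme-like cells, and DSG2 at 171 and 185 against 243 and 206 CPM. DSC2 and DSG2 thus differed far less between the classes than CDH1, and DSG2 had the opposite order. DSC3, another desmosomal cadherin, rose from 5.21 and 5.40 CPM to 55.0 and 36.9 CPM (log2 fold change 2.97, edgeR adjusted p = 4.98e-05). It did differ between the classes, at 7.87 and 6.36 CPM in amnion/trophectoderm-like against 70.0 and 60.2 CPM in mesoderm/mesenchyme-like cells. Among protocadherins and related genes 11 of 22 were called higher and 5 lower (median 0.44), where 49.9% of all genes were called in either direction. FAT1 fell by 0.47 and CLSTN1 rose by 0.42 on the log2 scale.

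Among tight junction and desmosome plaque genes 4 of 18 were called higher and 7 lower (median -0.54), against 27.1% higher and 22.8% lower over all genes. The 4 that rose included PKP2 (log2 fold change 2.81) and DSP (2.37), which build desmosome plaques, and CLDN4 (1.50). CLDN3 fell (log2 fold change -1.05, edgeR adjusted p = 0.0242). DSP was at 1767 and 1731 CPM in amnion/trophectoderm-like cells and at 354 and 391 CPM in mesoderm/mesenchyme-like cells, above the 130 and 136 CPM of pluripotent-like hESC in both. CLDN3 was at 83.4 and 85.8 CPM in amnion/trophectoderm-like cells and at 0.44 and 0.69 CPM in mesoderm/mesenchyme-like cells, against 54.1 and 44.2 CPM in pluripotent-like hESC.

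Proteins that bind EPCAM or cut it were mixed, with 4 of 14 called higher and 3 lower (median 0.18), a share near the 49.9% of all genes. CD9, a tetraspanin that associates with EPCAM, fell from 188 and 182 CPM to 64.2 and 108 CPM (edgeR adjusted p = 0.00674). SPINT2, an inhibitor of the matriptase that cleaves EPCAM, fell from 265 and 242 CPM to 92.0 and 162 CPM (edgeR adjusted p = 0.0126). Like EPCAM, both were lower in blastoid 3 than in blastoid 4. The sheddase ADAM10 rose by 0.62 on the log2 scale. Of 11 genes of cadherin shedding and endocytosis 7 were called higher and 2 lower (median 0.45), where 27.1% of all genes were called higher. MMP2, a matrix protease, rose from 18.6 and 20.7 CPM to 102 and 93.8 CPM (log2 fold change 2.18). ARF6 and NUMB, which act in cadherin endocytosis, rose by 0.54 and 0.43.

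Of 12 transcription factors linked to epithelial-mesenchymal transition and tested, 9 were called higher and 3 lower, where 49.9% of all genes were called (median 4.99, with the 2 genes without hESC counts set against 3 counts also 4.99). The 12 are those of 15 listed that passed the filter on low counts. Genes near 0 in hESC, such as TBX3, PRRX1, ZEB2 and SNAI2, could pass it only through their blastoid counts. The number called higher and the median are therefore in part set by the filter. TBX3 had no UMI in hESC and was at 328 and 239 CPM in blastoid 3 and 4 (edgeR adjusted p = 7.48e-06). PRRX1 was at 0 and 0.25 CPM in hESC and at 407 and 270 CPM in blastoids, ZEB2 at 0 and 0.13 against 84.5 and 50.002 CPM, and SNAI2 at 0.45 and 0 against 122 and 93.0 CPM. ZEB1, a repressor of CDH1, had no UMI in hESC and was at 24.4 and 20.02 CPM in blastoids. SNAI3, TWIST2 and TCF3 fell, by 2.96, 0.92 and 0.57 on the log2 scale. By class, ZEB1 was at 31.4 and 33.7 CPM in mesoderm/mesenchyme-like cells and at 1.37 and 0.49 CPM in amnion/trophectoderm-like cells. TBX3 was high in both, at 364 and 323 CPM and at 252 and 152 CPM.

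Of 16 epithelial regulators 6 were called higher and 2 lower (median 0.16), a share near the 49.9% of all genes. ESRP1, an epithelial splicing factor, fell from 96.5 and 95.8 CPM to 29.3 and 30.5 CPM (log2 fold change -1.81, edgeR adjusted p = 6.01e-05). It was at 92.7 and 59.7 CPM in amnion/trophectoderm-like cells and at 10.7 and 8.20 CPM in mesoderm/mesenchyme-like cells. The polarity gene PARD6B rose by 0.69 on the log2 scale. All 5 intermediate filament genes were called higher, against 27.1% of all genes. VIM, the mesenchymal filament, rose from 35.2 and 30.4 CPM to 647 and 663 CPM, and the epithelial keratins KRT19, KRT8 and KRT7 rose with it (log2 fold changes 3.01, 2.90 and 2.61). VIM and the keratins were highest in different classes. VIM was at 801 and 972 CPM in mesoderm/mesenchyme-like and at 159 and 270 CPM in amnion/trophectoderm-like cells. KRT8 was at 668 and 931 against 2123 and 2492 CPM, and KRT19 at 575 and 840 against 2271 and 2758 CPM. In mesoderm/mesenchyme-like cells KRT8 and KRT19 were thus also above pluripotent-like hESC (140 and 154 CPM, and 141 and 126 CPM). KRT7 was at 2.44 and 2.07 against 246 and 249 CPM, but it is among the markers that named the amnion/trophectoderm-like class.

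**Figure D5:**
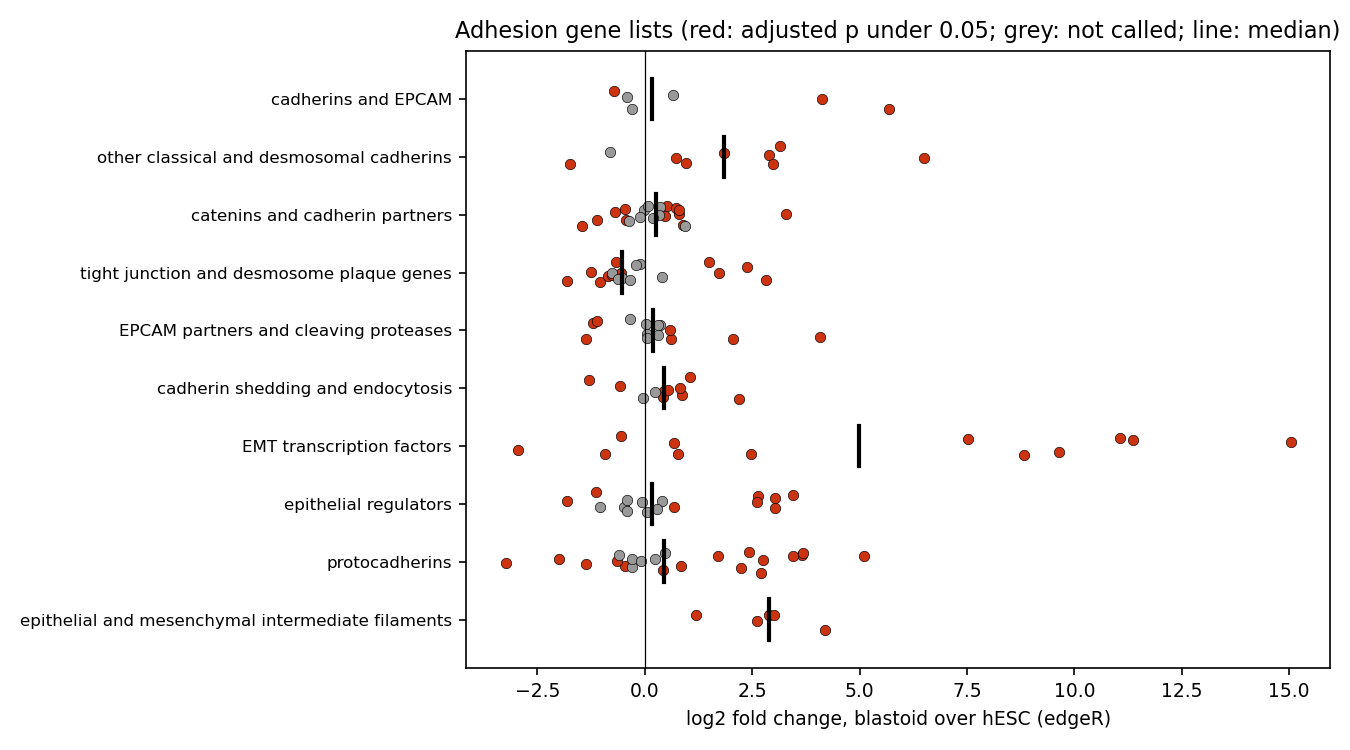
Log2 fold change of blastoid over hESC (horizontal axis, edgeR) of each tested gene of the 6 described and of the 9 adhesion lists, in red where the adjusted p was under 0.05 and in grey otherwise, with the median as a line. The transcription factor list reaches furthest to the right (median 4.99). Its genes without hESC counts passed the filter on low counts only through the blastoids, and their fitted values depend on the fit. The tight junction list has a median of -0.54.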

How the data were processed

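The authors deposited 1 table of UMI counts per sample (genes by barcodes). Cell Ranger and GRCh38 are named in the submitters' processing notes, with the version not given in the sources used here. A gene missing from a table was taken as 0. Barcodes with fewer than 500 genes, more than 20% of UMIs from mitochondrial genes or a Scrublet doublet call (73 of 9680, or 0.754%) were dropped, leaving 9607 cells. No cell of hESC 2 was called a doublet. Cells were clustered in scanpy 1.11.5 (2000 variable genes, 30 components, 15 neighbours, Leiden resolution 0.5), and a cluster was named by the marker set with the largest share of its genes found in at least 10% of cells, with 3 or more needed. It stayed unnamed where its top 10 genes by fold held more markers of another set, or where its median UMI count was under 0.333 of its sample's and that top 10 held no marker of the set. Class names rebuilt in this way may differ from those of the study.

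Counts were summed per sample and tested with edgeR 4.0.16 (TMM, filterByExpr, quasi-likelihood, Benjamini-Hochberg), with DESeq2 1.42.0 as an alternative. The script was tested on simulated data. CPM is UMIs per 1e+06 of the same sum, without TMM. Intervals are exact Clopper-Pearson and cover counting error only.

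The members and lists were chosen with earlier results of these data known. Genes named are the 6 members, up to 4 called genes per list with the largest change and an average log2 CPM not under 5, whole lists where a sentence gives one, and the 3 genes most like each member. ZEB1, DSC3 and the genes of the closing section were named after their values were seen. Without-shared-barcode values of classes, shares and co-detection were added after seeing the data.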

Additional observations from a re-analysis of the deposited data

How the results depend on the processing

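With 2 samples per group, 1 library can decide a value. No paired analysis was possible because the groups share no replicate number. CDH6 and CDH11 stayed called and higher in blastoids under all alternatives run, with adjusted p up to 0.0184 and 1.72e-05. Leaving out 1 sample at a time gave log2 fold changes from -0.50 to -0.15 for CDH1, -0.065 to 1.10 for CDH2, -1.04 to 0.030 for CDH3 and -1.16 to -0.39 for EPCAM, and 4896 to 10157 genes called. CDH2 without the filter on low counts was 0.67 (edgeR adjusted p = 0.0472), and CDH1 without shared barcodes was -0.41 (edgeR adjusted p = 0.0420). Scaling by library size alone shifted the typical gene upward (median shift 0.13, log2), so that 63.1% in place of 54.3% of calls were upward, with no call among the 6 genes changed.

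In pluripotent-like cells 3095 genes were called, 1540 with DESeq2, 4782 with the class taken from marker sums and 1259 to 3518 without 1 sample. Without shared barcodes 2062 were called, and the EPCAM log2 fold change was -0.057. There, marker sums gave 0.884 for CDH2 and -0.0060 for EPCAM. Leaving out 1 sample gave -0.924 to 0.131 for CDH2 and -0.822 to 0.144 for CDH3. With 15 components only 20 and 7 blastoid cells were pluripotent-like. The cluster led by TMPRSS11E and NODAL (101 and 100 cells of blastoid 3 and 4) was then unnamed. Its top 10 genes held more markers of another set. A cluster led by MSGN1 (521 and 328 cells) was unnamed for the same reason, and 52.72% and 43.58% of blastoid cells were mesoderm/mesenchyme-like. At resolution 1.0 a cluster led by HOXA-AS3 and MSGN1 (186 and 26 cells) was unnamed, again for that reason. The log2 class ratio was 3.38 (resolution 1.0), 3.52 (15 components) and 3.41 (without shared barcodes) for CDH1, -4.29 (without shared barcodes) for CDH2, 0.042 (marker sums) for CDH6, and 4.50 (marker sums), 5.46 (15 components) and 5.07 (without shared barcodes) for EPCAM. Without thinning, the CDH3 share differed by 1.60 percentage points the other way. Both CDH1 and CDH2 were found in 6.69% of blastoid cells and 9.76% of hESC without thinning and in 2.87% and 5.67% at 4000 UMIs, where more UMIs per cell are read. The causes of the other differences were not tested. Leaving out samples for shares, class levels and co-detection, and shared barcodes for these and the pluripotent-like fit, was added after seeing the data.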

Other observations

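Some epithelial regulators and junction genes were called within the pluripotent-like cells of the blastoids, in the edgeR fit on those cells (11.7% of all genes called higher and 10.2% lower). Of 16 epithelial regulators 7 were called higher, 1 lower and 8 not (median log2 fold change 0.77, against -0.02 over all genes tested). The filter on low counts left out none of the 16. Genes low in hESC, such as KLF5 and GRHL3 (0.23 and 0.51 CPM in pluripotent-like hESC), could pass it only through the blastoid cells. KLF5, a zinc finger factor of trophectoderm and other epithelia, was at 0.92 and 1.73 CPM in hESC 1 and 2 and at 56.5 and 85.2 CPM in blastoid 3 and 4 (log2 fold change 5.70 ± 0.30 SE, adjusted p = 7.62e-10). ELF3, an epithelial ETS factor, was at 4.67 and 5.26 CPM against 61.1 and 111 CPM (log2 fold change 4.14, adjusted p = 4.91e-09). Of 18 tight junction and desmosome plaque genes 6 were called higher, 1 lower and 11 not. CLDN4 (log2 fold change 1.80, adjusted p = 2.42e-06) and DSP (1.55, adjusted p = 2.26e-06) were among those higher. In the same cells the amnion/trophectoderm markers summed to 173 and 160 CPM against 21.5 and 19.3 CPM in hESC, and their part in these calls was not tested. VIM was not called there (log2 fold change -0.26, adjusted p = 0.505). Without the shared barcodes only 16 of the 105 pluripotent-like cells of blastoid 4 were left. Values of KLF5, ELF3, CLDN4 and DSP without those barcodes are not given here.

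CDH5, the cadherin of endothelium, was seen in 2 of 5 and 4 of 12 endothelial-like cells of blastoid 3 and 4 (4 and 5 UMIs). It also had 18 UMIs in 6 amnion/trophectoderm-like cells of blastoid 3 and no UMI in the mesoderm/mesenchyme-like cells of either sample. The endothelial-like cells had no CDH1 UMI, and CDH11 had 16 and 27 UMIs there. CDH10, a type II cadherin, was called higher over all cells (edgeR adjusted p = 0.000112). Being near 0 in hESC, it could pass the filter on low counts only through its blastoid counts. CDH10 was highest in amnion/trophectoderm-like cells, at 21.5 and 17.5 CPM against 8.88 and 8.40 CPM in mesoderm/mesenchyme-like cells. That is the opposite order to CDH11.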
